A study of Homo sapiens with 10 samples.

Results

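The zinc finger genes of the long arm of chromosome 19 were taken from the annotation that came with the data. A gene was a member if any of its names was ZNF or ZFP followed by a number, with at most 1 letter after a ZNF number, and if it started at base 36000000 of chromosome 19 (GRCh38) or beyond. This gave 157 of 57110 genes, with 590 of 99493 transcripts. Of the members, 140 stand alone and 17 are joined with overlapping genes under 1 identifier, so that the counts of a joined gene may come from any of its parts. They comprise 135 protein-coding genes, 5 genes annotated as pseudogenes and the 17 joined genes. The rule used names and positions only, and no measured value. The first member is ZNF565 at 36182060, with 0.85 to 2.53 CPM by line, and the last gene of the same name pattern before the limit is ZNF792 at 34956354, with 0 to 2.97 CPM. CPM is the count of a gene scaled to a library total of 1000000 counts. ZFP36 encodes tristetraprolin, an RNA-binding protein with CCCH fingers and no C2H2 zinc finger, and was taken by its name alone.

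Zinc finger proteins of the C2H2 type are the largest family of DNA-binding proteins in the human genome, and chromosome 19 holds many of them in tandem clusters. Many carry a KRAB domain, which recruits the co-repressor TRIM28. TRIM28 in turn brings the histone H3 lysine 9 methyltransferase SETDB1, HP1 proteins (CBX1, CBX3 and CBX5) and the NuRD complex, with CHD4 and HDAC1, to the bound DNA. The bound sites are often in transposable elements, and ZNF274 is known for binding the zinc finger genes themselves. Promoters of these genes often lie in CpG islands, and CpG methylation of some of them has been studied in carcinomas, as for ZNF331, ZNF582 and ZNF671.

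RNA of 7 established ovarian cancer cell lines was sequenced as long reads on nanopore instruments, to benchmark software that quantifies transcripts. The lines OVMANA, OVKATE and OVTOKO, and SK-OV-3, COV362 and COV504, were each sequenced in 1 PromethION library. IGROV-1 had 2 PromethION libraries and 2 libraries from the smaller MinION. The labels name the line and the instrument and no treatment, genotype or passage, and nothing says that the IGROV-1 libraries came from separate cultures. A value of any of the other lines therefore rests on a single library, and the p-values measure only the spread between the IGROV-1 libraries, which may be technical.

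Library totals lay between 1729782 counts (OVTOKO) and 3666224 (IGROV-1 MinION replicate 1). A count of 0 allows up to 3 counts, which is 1.73 CPM in OVTOKO, 1.18 to 1.6 CPM in the 5 other lines with 1 library, and 0.64 CPM over both IGROV-1 PromethION libraries. Of the marker genes, PAX8, a transcription factor of Müllerian epithelium, lay between 84.1 and 339.8 CPM in every library. The other Müllerian markers, WT1, MUC16, MSLN and EMX2, had 0 in OVTOKO. They had at most 0.86 CPM in the IGROV-1 libraries and at most 2.03 CPM in SK-OV-3, and each was detected in OVKATE (MSLN 309.6 CPM). The epithelial adhesion gene EPCAM had 45.6 to 1813.5 CPM in 5 lines, 8.67 CPM in OVTOKO and at most 1.54 CPM in the IGROV-1 libraries. The other epithelial markers differed. KRT18 had 243.6 to 4627.0 CPM in every library. KRT8 had 133.5 CPM in OVTOKO and at most 11.4 CPM in IGROV-1. KRT19 and CLDN3 had 0.58 and 6.94 CPM in OVTOKO, and 140.1 to 177.0 and 103.1 to 173.5 CPM in IGROV-1. CDH1 and CLDN4 had at most 2.31 CPM in OVTOKO and 1.28 CPM in IGROV-1. The leukocyte marker PTPRC had at most 0.44 CPM in any library, and the T cell marker CD3E had 0 in all 10. CD14 had at most 4.0 CPM, and LYZ had 12.4 CPM in OVKATE and at most 1.33 CPM elsewhere. CD68 is joined with other genes (346.7 to 1064.9 CPM). Of the fibroblast markers, COL1A1 had 219.3 CPM in SK-OV-3 and COL1A2 had 429.4 CPM in COV362, and both had 0 in OVTOKO. Of the endothelial markers, CDH5 had 24.9 CPM in COV504 and PECAM1 had 10.6 CPM in SK-OV-3. VWF and KDR had at most 0.55 and 1.78 CPM in any library. In bulk RNA, fewer cells that express a gene and less RNA of it per cell cannot be told apart.

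The promoters of 5 members are printed as examples of members without a count in a line and of detected neighbours. ZNF880 and ZNF83 had no count in OVTOKO, while ZNF766, which comes shortly before them, had 24 counts there. ZNF274 had no count in COV504, while ZNF256, in the same stretch of genes, had 27. Each sequence holds the 250 bases before the annotated start in RefSeq on GRCh38.p14, 5′ to 3′ on the strand of the gene, with CpG pairs in capitals.
ZNF766: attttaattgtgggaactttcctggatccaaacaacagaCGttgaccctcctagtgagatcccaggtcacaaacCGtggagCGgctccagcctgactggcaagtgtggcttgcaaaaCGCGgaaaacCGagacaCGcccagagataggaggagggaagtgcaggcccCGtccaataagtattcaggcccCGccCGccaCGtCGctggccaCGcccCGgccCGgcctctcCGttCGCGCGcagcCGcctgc
ZNF880: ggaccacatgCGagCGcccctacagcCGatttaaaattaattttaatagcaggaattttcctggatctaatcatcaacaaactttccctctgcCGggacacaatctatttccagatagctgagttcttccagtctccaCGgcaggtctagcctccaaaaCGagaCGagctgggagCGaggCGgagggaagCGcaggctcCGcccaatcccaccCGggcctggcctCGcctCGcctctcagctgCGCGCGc
ZNF83: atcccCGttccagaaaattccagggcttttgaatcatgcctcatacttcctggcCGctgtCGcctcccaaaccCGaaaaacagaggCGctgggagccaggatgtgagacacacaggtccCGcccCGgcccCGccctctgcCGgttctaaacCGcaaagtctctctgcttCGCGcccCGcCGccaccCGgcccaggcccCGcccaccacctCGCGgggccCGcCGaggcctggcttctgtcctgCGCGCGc
ZNF256: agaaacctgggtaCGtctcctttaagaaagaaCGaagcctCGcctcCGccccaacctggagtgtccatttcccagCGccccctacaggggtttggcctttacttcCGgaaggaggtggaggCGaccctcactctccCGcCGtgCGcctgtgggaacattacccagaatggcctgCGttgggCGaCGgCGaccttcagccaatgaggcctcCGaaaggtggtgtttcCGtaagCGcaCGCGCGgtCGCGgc
ZNF274: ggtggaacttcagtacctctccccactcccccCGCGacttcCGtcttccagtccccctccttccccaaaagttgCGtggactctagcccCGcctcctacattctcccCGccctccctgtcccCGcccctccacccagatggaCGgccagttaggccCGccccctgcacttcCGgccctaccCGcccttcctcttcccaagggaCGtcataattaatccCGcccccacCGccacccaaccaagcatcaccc
The windows are chr19:52269337-52269586 on the plus strand (ZNF766), chr19:52369673-52369922 on the plus strand (ZNF880) and chr19:52690497-52690746 on the minus strand (ZNF83). Those of ZNF256 and ZNF274 are chr19:57947707-57947956 on the minus strand and chr19:58182811-58183060 on the plus strand. All 5 are rich in CpG, with 20, 17, 23, 22 and 14 pairs in the order printed, in genes with and without counts alike.

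Most members were expressed at a low level, and OVTOKO stood apart from the other lines. The members together took 419.7 CPM of the OVTOKO library (95% Wilson interval 390.3 to 451.4) and 954.9 to 1438.4 CPM of each other library. In OVTOKO 77 of the 157 members had at least 1 count, against 127 to 145 in the other libraries. The median over all members was 0 CPM in OVTOKO and 2.73 to 5.78 CPM elsewhere. The highest sum was that of SK-OV-3 (1438.4 CPM, interval 1386.5 to 1492.2). The intervals cover counting error only. The 4 IGROV-1 libraries had 954.9 and 989.3 CPM on PromethION and 987.1 and 1087.0 CPM on MinION, so the gap to OVTOKO exceeded the spread between these libraries.

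**Figure D1:**
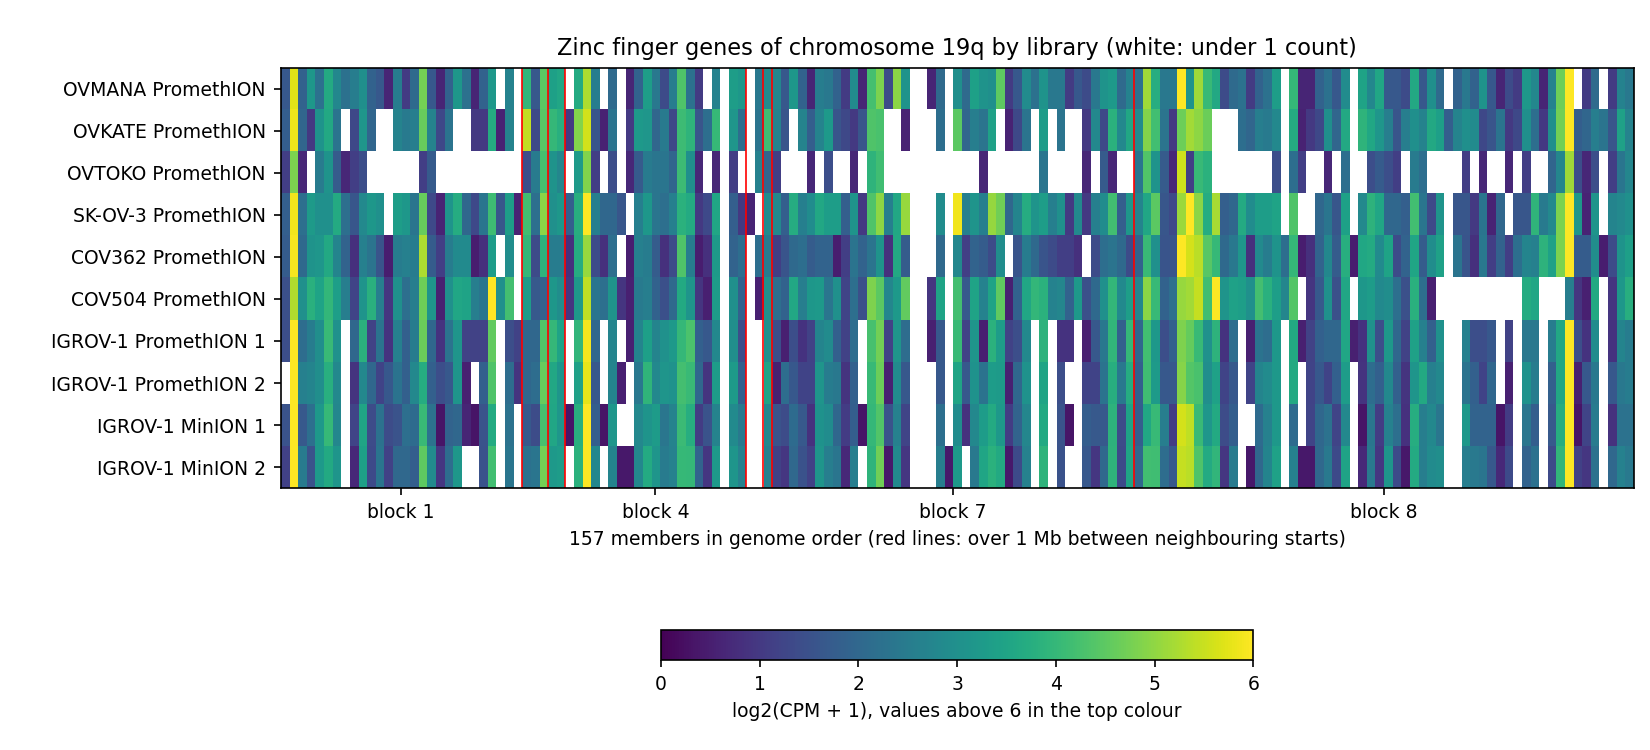
Level of each of the 157 members (columns, in genome order) in each of the 10 libraries (rows), as log2(CPM + 1). White cells have under 1 count, and red lines separate blocks with over 1 Mb between neighbouring starts. The OVTOKO row holds long white stretches in blocks 1, 7 and 8, and the COV504 row holds one late in block 8.

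The members with the highest mean level over the 7 lines were mostly detected in every line. A joined gene that includes ZNF544 and ZNF8 led with a mean of 71.9 CPM, followed by ZNF146 (52.6 CPM), which encodes a protein made almost wholly of zinc fingers. ZNF581, ZNF428, ZNF580 and ZNF787 had means of 48.8, 43.9, 31.8 and 30.1 CPM. The pseudogene ZNF542P, ZNF579, a joined gene of ZNF585A and ZNF585B, and ZNF480 had 20.9 to 25.4 CPM. Of these 10, ZNF542P alone had lines without a count (OVKATE and OVTOKO). ZNF585A and ZNF585B are close copies whose reads could be split between them.

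Of the 157 members, 114 reached 5 CPM in at least 1 line and were called present, and the other 43 stayed below it in all 7 lines. Among the 43, 3 had under 1 count in every library. A present member was called silent in a line when it had under 1 count in each PromethION library of that line, a statement about counts and not about chromatin. Of the 114 present members, 58 were silent in no line and 56 in at least 1. Of these 56, 35 were silent in 1 line, 14 in 2, 4 in 3, 2 in 4 and 1 in 5 lines.

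In OVTOKO 50 of the 114 present members were silent (43.9%), against 10.5% of all genes at 5 CPM or more in some line. The background differed between lines, and members fell on either side of it. OVKATE had 14 silent members (12.3%, background 4.78%), IGROV-1 had 9 (7.89%, background 9.53%) and COV504 had 8 (7.02%, background 5.41%). OVMANA had 4 (3.51%, background 10.6%), SK-OV-3 had 2 (1.75%, background 6.62%) and COV362 had 1 (0.88%, background 3.99%). In OVMANA, SK-OV-3, COV362 and IGROV-1 the share of silent members was thus below that of genes at large. With 1 library per line these shares have no test. Of the 9 members silent in IGROV-1 on PromethION, none had a count of 1 or more in either MinION library, so all 9 were silent in 4 libraries.

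A low level makes a count of 0 more likely, so the shares were also taken over genes of a like level. Among genes whose highest line lay between 5 and 20 CPM, 43 of 90 members (47.8%) were silent in OVTOKO, against 21.3% of 3612 other genes. In the same window OVKATE had 12.2% of members against 9.94% of other genes, so the 2 shares were close. COV504 had 7.78% against 12.3%, IGROV-1 9 of 90 against 18.1%, OVMANA 4.44% against 22.8%, SK-OV-3 2.22% against 14.4% and COV362 1.11% against 9.16%. In this window, which matches the highest line alone, OVTOKO thus had the 1 share of silent members well above that of other genes. COV504 moved to below it. By the median over the other lines, given next, OVKATE and COV504 also lay above the background, on few silent members. Among members whose median over the other 6 lines was at least 5 CPM, 22 of 65 (33.9%) were silent in OVTOKO, against 2.97% of all such genes. In OVKATE 5 of 59 (8.47%, background 1.0%) were silent by this measure, in COV504 3 of 57 (5.26%, background 0.932%) and in IGROV-1 1 of 61 (1.64%, background 3.48%). OVMANA, SK-OV-3 and COV362 had none, with backgrounds of 3.15%, 1.17% and 0.399%. After all libraries were thinned to 1729382 counts, 50 of 115 present members were still counted as silent in OVTOKO.

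The comparison with neighbouring sets placed the OVTOKO share with the rest of chromosome 19's zinc finger genes. Of the present zinc finger genes that start on chromosome 19 before the limit, 21 of 55 (38.2%) were silent in OVTOKO. Of those on other chromosomes 19 of 202 (9.41%) were silent there, and of the other genes in the same interval of chromosome 19, 37 of 296 (12.5%). With a median of at least 5 CPM in the other lines these shares were 5 of 28 (17.9%), 5 of 151 (3.31%) and 3 of 220 (1.36%). The zinc finger genes of chromosome 19 before the limit also had a high share in IGROV-1, 11 of 55 (20%), where the members had 7.89%. None of these differences between sets was tested.

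**Figure D2:**
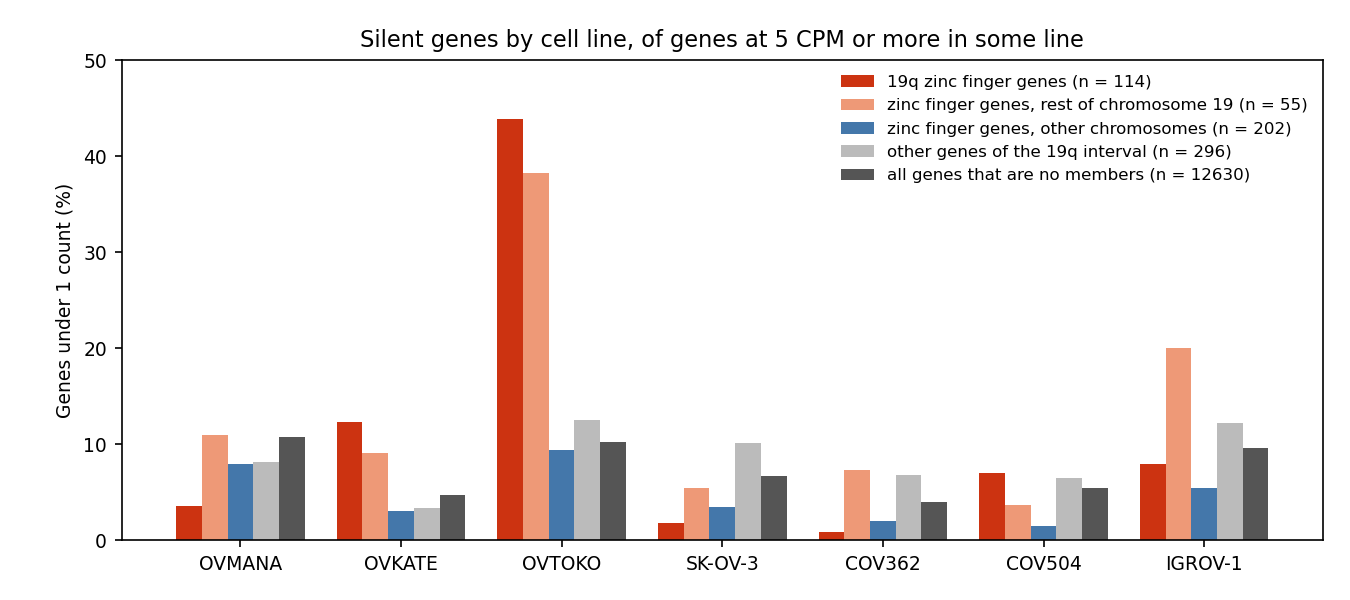
Share of genes with under 1 count (y axis, percent) in each cell line (x axis), among genes at 5 CPM or more in some line, for 5 sets of genes. In OVTOKO the 19q zinc finger genes (43.9%) and those of the rest of chromosome 19 (38.2%) stand above zinc finger genes elsewhere (9.41%).

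The silent members of the lines overlapped in OVTOKO. Of its 50 silent members, 30 were silent in OVTOKO alone (60%), against 14.5% of the other genes silent there and 9 of 21 zinc finger genes of chromosome 19 before the limit (42.9%). All 14 members silent in OVKATE were also silent in OVTOKO, which is 28.0% of the OVTOKO list, and of the other genes silent in OVKATE 47.2% were silent in OVTOKO. Of the 9 silent in IGROV-1, 8 (88.9%) were silent in OVTOKO, against 57.0% of other genes. The zinc finger genes of chromosome 19 before the limit showed the same overlap, with 5 of 5 silent in OVKATE, 6 of 6 in OVMANA and 10 of 11 in IGROV-1 also silent in OVTOKO. In COV504 4 of 8 were shared with OVTOKO, against 48.1% of other genes. COV504 had 4 of its 8 silent in no other line (other genes 15.7%), OVMANA had 1 of 4 (other genes 21.9%), and OVKATE, SK-OV-3, COV362 and IGROV-1 had none.

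The 64 present members that were not silent in OVTOKO were also low there. Their median ratio to the median of the other 6 lines was 0.46, 59 of them lay below that median, and 30 lay below every other line. OVTOKO had the highest level of all lines for 1 of the 114 members, ZNF114, whereas SK-OV-3 had it for 35, COV504 for 34, OVKATE for 17, IGROV-1 for 10, OVMANA for 9 and COV362 for 8. ZNF114 had 5.2 CPM in OVTOKO, 3.53 to 4.27 CPM in OVMANA, OVKATE and COV362, 0.44 CPM in COV504 and 0 in SK-OV-3 and all IGROV-1 libraries.

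In genome order the members fell into 8 blocks, separated where over 1 Mb lay between neighbouring starts. The silent members of OVTOKO were spread unevenly over them. In block 1 (chr19:36182060-37817300) 12 of 20 present members were silent, in block 7 (chr19:51571298-53580269) 22 of 32, and in block 8 (chr19:55476332-58481230) 15 of 42. In block 4 (chr19:43525497-45076588), which holds ZNF225, ZNF226 and ZNF227, 1 of 14 was silent. The other 4 blocks, with 1 or 2 present members each, had none. In block 8 the first 7 present members, from ZNF628 to ZNF444, were all detected in OVTOKO, and the 15 silent ones were among the next 35. The difference between blocks was not tested.

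A run was defined as 3 or more present members in a row, within a block, that were silent in the same line. OVTOKO had 7 runs with 37 of its 50 silent members, COV504 had 2 with all of its 8, OVKATE had 1 with 3, and the other 4 lines had none. Members that were present in no line were passed over. If they break a run instead, OVTOKO has 7 runs with 25 members. With only members of at least 10 CPM in some line, it has 3 runs with 17 members.

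Block 1 held the first and the second run of OVTOKO. The first (415.9 kb) comprised ZNF850, ZNF790, ZNF829, ZNF568 and ZNF420. Their medians over the other lines were 2.35 to 5.12 CPM, so each count of 0 stands against few expected counts. ZNF420 encodes a KRAB protein described as a regulator of p53, and ZNF568 has a mouse counterpart that represses a placental transcript of Igf2. ZNF420 had 3.21 to 5.36 CPM in the other lines, and ZNF829 had 4.5 to 9.12 CPM. ZNF850 reached 12.9 CPM in COV504 and lay at 2.14 to 8.1 CPM in the others.

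The second run (308.6 kb) held ZNF569, ZNF570, ZNF793, ZFP30, ZNF781 and the joined gene of ZNF607. ZFP30 (ENSG00000120784, chr19:37613749-37656261, minus strand) was the best measured of them. It had 64.1 CPM in COV504, 16.7 in SK-OV-3, 11.9 in OVKATE, 9.01 in COV362, 8.02 in OVMANA, 22.6 and 19.3 in the IGROV-1 PromethION libraries, 11.7 and 17.3 in the MinION libraries, and 0 in OVTOKO. All 9 other libraries thus lay above the 1.73 CPM that a count of 0 allows in OVTOKO. ZNF781 was silent in 4 lines and reached 7.12 CPM in COV504.

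Block 7 held the third, the fourth and the fifth run, which follow each other. The third (450.5 kb) comprised ZNF610, ZNF880, ZNF528, ZNF701, ZNF83, ZNF611 and ZNF600, and the antisense gene ZNF528-AS1 within it also had no count in OVTOKO. ZNF528-AS1 had 5.57 CPM in SK-OV-3, 0 in OVKATE and 0.39 to 1.33 CPM in the other lines, so it was low in most. ZNF83 (ENSG00000167766, chr19:52594060-52690496, minus strand) had the highest median over the other lines, 15.2 CPM, of the members silent in OVTOKO alone. It had 57.2 CPM in SK-OV-3, 21.3 in OVKATE, 17.4 in COV504, 6.95 in OVMANA, 5.88 in COV362, 15.8 and 10.3 on IGROV-1 PromethION, and 6.55 and 8.34 on MinION. ZNF880, whose promoter is printed above, had 29.9 CPM in OVMANA, 11.4 in COV362, 11.1 in SK-OV-3, 8.45 in COV504, 7.69 and 6.44 on IGROV-1 PromethION, and 0 in both OVKATE and OVTOKO. ZNF480 and ZNF766, which come just before this run, had 16.8 and 13.9 CPM in OVTOKO and 7.44 to 30.4 and 3.92 to 27.6 CPM in the other lines. By counts the run starts at ZNF610, which follows ZNF480 in the order of members. ZNF610 had a median of 1.23 CPM over the other lines, below the 1.73 CPM that a 0 allows in OVTOKO. The next member, ZNF880, had a median of 9.8 CPM. The edge is thus placed only between ZNF480 and ZNF880.

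The fourth run (199.9 kb) held ZNF468, the joined gene of ZNF320, the pseudogenes ZNF321P and ZNF702P, and the joined gene of ZNF816. ZNF816 and ZNF321P overlap in annotation, so their counts may be split. ZNF468 had 31.9 CPM in SK-OV-3 and 1.57 to 13.3 in the other libraries outside OVTOKO, and the ZNF320 gene had 6.66 to 24.8 CPM wherever it was detected. The fifth run (284.3 kb) held ZNF415, ZNF347, ZNF677 and ZNF525, with medians over the other lines of 1.46 to 4.12 CPM. It passes over ZNF845, which lies between ZNF677 and ZNF525 and was under 5 CPM in every line. ZNF845 was detected in OVTOKO at 0.58 CPM, so this stretch was not wholly without counts. ZNF677 and ZNF702P were silent in OVKATE, OVTOKO and IGROV-1. Near the end of block 7, outside any run, ZNF331 (ENSG00000130844, chr19:53521024-53580269, plus strand) had 0 in OVTOKO, 1.57 CPM in COV362, 5.34 to 10.9 in OVMANA, OVKATE, SK-OV-3 and COV504, and 10.1 to 14.9 in the IGROV-1 libraries.

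Block 8 held the sixth and seventh run. The sixth (220.8 kb) comprised the pseudogene ZNF542P, ZNF582, ZNF583, ZNF667, ZNF471, ZFP28 and ZNF470. Of the other genes within it, ZNF667-AS1, a noncoding gene that starts on the opposite strand just beyond the start of ZNF667, was the 1 that reached 5 CPM, and it too had no count in OVTOKO (8.02 to 17.2 CPM in OVMANA, OVKATE, SK-OV-3, COV362 and COV504). ZNF542P had 103.7 CPM in COV504, 36.0 in SK-OV-3, 15.3 in COV362, 11.2 in OVMANA, 13.7 and 9.88 on IGROV-1 PromethION, and 0 in OVKATE and OVTOKO. ZNF542P, ZNF582 and ZNF583 formed the single run of OVKATE (59.3 kb), so this stretch was without counts in both lines. ZNF667 and ZNF667-AS1 both had 0 in the IGROV-1 PromethION libraries as well. The seventh run (76.2 kb) held ZNF551, the joined gene of ZNF776, and ZNF671.

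The silent members of COV504 lay together at the end of block 8, in a stretch of 532 kb (chr19:57682045-58213562) that is partly shared with OVTOKO. Its first run (183.1 kb) held the ZNF776 gene, ZNF671, ZNF586, ZNF552 and the ZNF587 gene, and the second (154.3 kb) held ZNF135, ZNF329 and ZNF274. A further 5 members in between or beside them, ZNF154, ZNF587B, the ZNF814 gene, ZNF417 and ZNF418, were under 5 CPM in every line and also had no count in COV504. ZSCAN18, a SCAN domain zinc finger gene outside the name pattern, lies in the second run and had 0 CPM in COV504, 51.2 in SK-OV-3, 29.4 in COV362, 16.0 in OVMANA, 15.8 in OVKATE and about 3 in OVTOKO and IGROV-1 (2.89 and 3.0).

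Within this stretch ZNF256 and ZNF606 were the exceptions. ZNF256 had 12.01 CPM in COV504, above all other lines (1.16 to 8.02), and ZNF606 had 10.7 CPM there, second to SK-OV-3 (14.2). ZNF274 (ENSG00000171606, chr19:58183029-58213562, plus strand) had 24.6 CPM in OVMANA, 25.2 in OVKATE, 27.4 in SK-OV-3, 27.0 in COV362, 5.78 in OVTOKO, 11.1 and 11.2 on IGROV-1 PromethION, 12.3 and 14.5 on MinION, and 0 in COV504. The next gene, the joined ZNF544 gene, was the most abundant member and had 4.89 CPM in COV504 against 34.1 to 117.5 CPM in the other lines. It was thus low and not silent, and COV504 lay below OVTOKO there. ZNF551, at the other edge, had 0.44 CPM in COV504 (1 count).

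**Figure D3:**
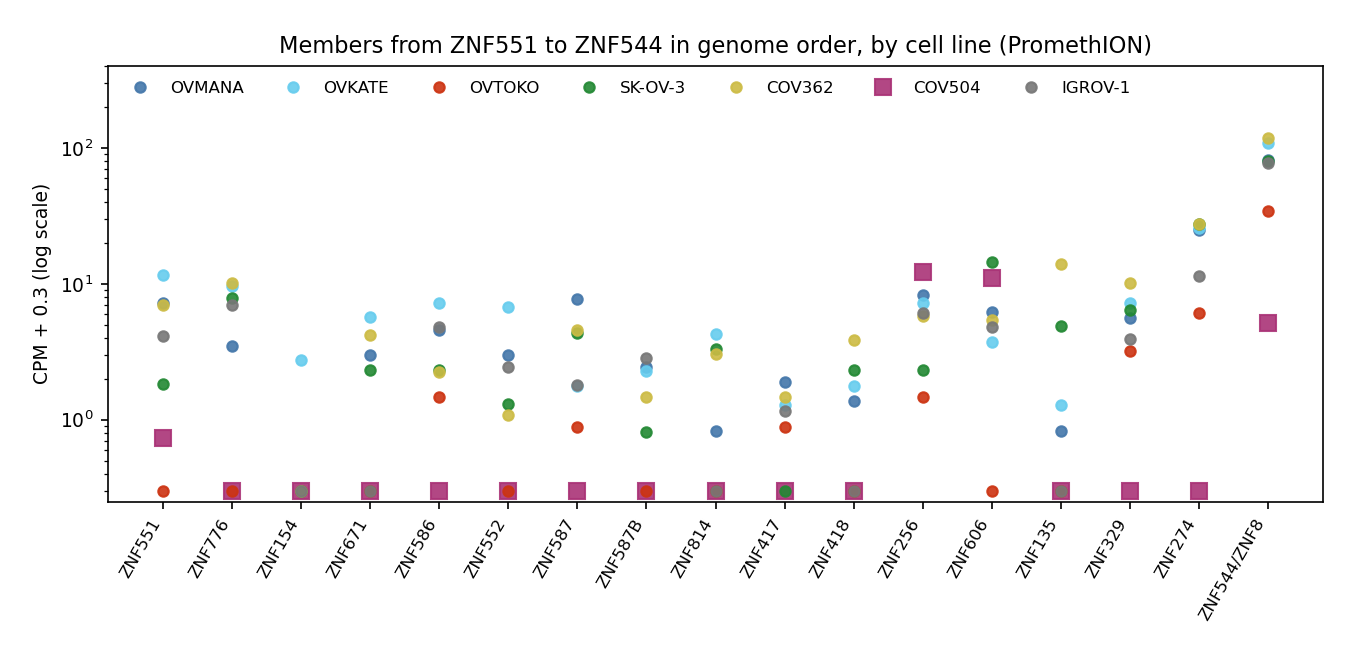
CPM plus 0.3 on a log axis for 17 members from ZNF551 to the joined ZNF544 gene, in genome order, by cell line (PromethION; IGROV-1 as the mean of 2 libraries). The bottom of the axis is 0 CPM. COV504 (squares) is at 0 for 13 members and at 12.01 and 10.7 CPM for ZNF256 and ZNF606.

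Each line was then compared with the IGROV-1 PromethION libraries over all 13030 genes that passed the filter on low counts, of which 120 were members. The other 37 members were too low to test. A member could pass the filter through the line in which it is high, so the counts below describe the tested members. All 6 comparisons share the IGROV-1 libraries, and edgeR's quasi-likelihood test takes the spread of a single library from the replicates of IGROV-1. Calls were made at a Benjamini-Hochberg adjusted p under 0.05.

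In OVTOKO 35 of the 120 tested members were called lower (29.2%, background 15.9%) and 2 higher (1.67%, background 18.2%). The median log2 fold change of the members was -1.58, against 0.0 over all genes, and 99 of 120 lay below 0. With the 54 members that had under 1 count in OVTOKO or in IGROV-1 set to the bound that 3 counts allow, the median was -0.76, against 0.0 over all genes. Of the 35 members called lower, 23 were silent in OVTOKO and 12 were not. The 35 comprised 8 in block 1, 4 in block 4, 13 in block 7 and 10 in block 8. DESeq2 gave an adjusted p for 76 of the 120 and called 7 of them, all lower (background 11.9% in either direction of the genes with an adjusted p). With the PromethION libraries alone edgeR called 24 members, without IGROV-1 MinION replicate 1 it called 21, and without MinION replicate 2 it called 24.

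In the other lines members were called in both directions. SK-OV-3 had 24 higher and 3 lower (backgrounds 22.0% and 19.8%), COV504 had 29 higher and 11 lower (24.0% and 19.6%), and OVMANA had 20 higher and 5 lower (18.9% and 16.5%). The member medians of these lines were 0.51, 0.52 and 0.20, against -0.01 to 0.0 over all genes. COV362 had 19 higher and 13 lower (23.7% and 18.8%, member median 0.08) and OVKATE 10 higher and 12 lower (26.8% and 22.4%, member median -0.07). At the same bound, the medians were 0.51 (SK-OV-3), 0.49 (COV504), 0.19 (OVMANA), 0.08 (COV362) and 0.0 (OVKATE). In SK-OV-3 lower calls were rare, at 2.5% of the members tested. DESeq2, which gave an adjusted p for 90 (COV362) or 99 (each other line) of the members, called 0 in OVMANA and in SK-OV-3, with 4 at an unadjusted p under 0.05 in each (backgrounds 12.3% and 14.2%). It called 5 in OVKATE (18.0%), 1 in COV362 (13.8%) and 4 in COV504 (15.1%). Without IGROV-1 MinION replicate 1, edgeR called 5 higher in OVKATE, 11 higher and 2 lower in OVMANA, and 1 lower in SK-OV-3. Without MinION replicate 2 it called 2 lower in OVMANA and 0 in SK-OV-3.

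**Figure D4:**
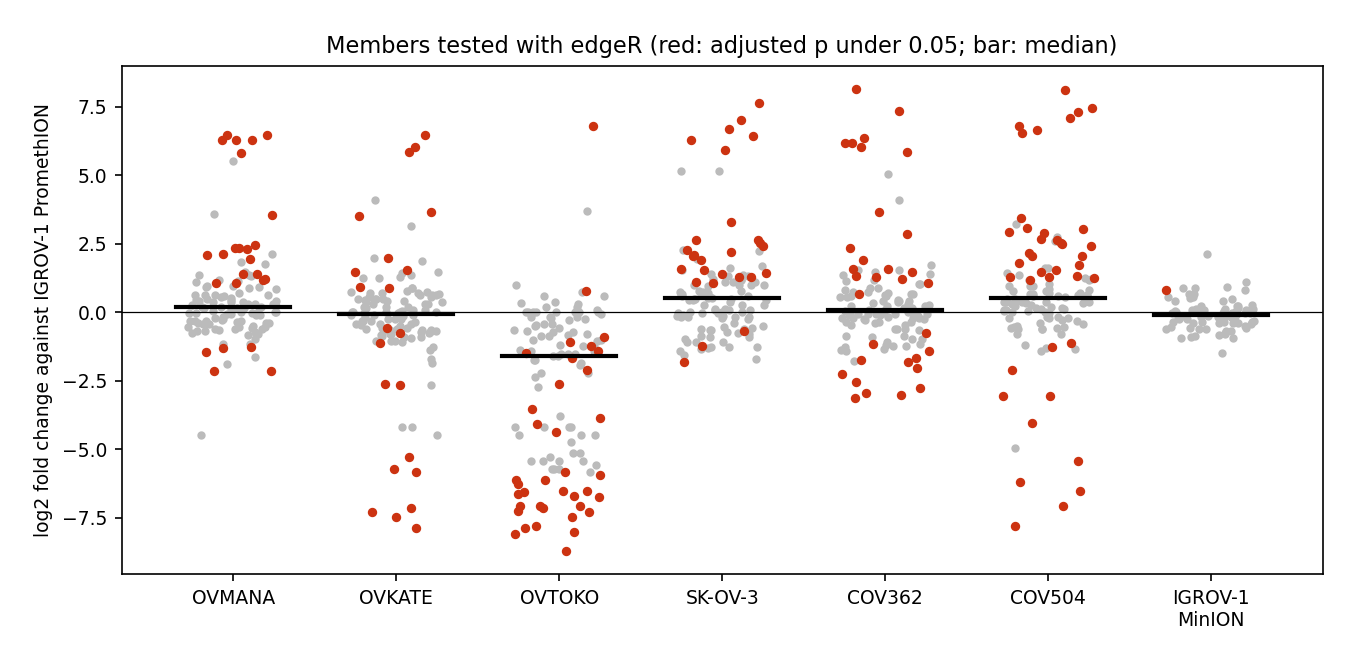
Fitted log2 fold change of each tested member (points) for 6 lines and for the MinION libraries of IGROV-1, each against IGROV-1 PromethION. Red points passed edgeR's test, and bars are medians. Points of genes with no count in a group have a fitted size that depends on the prior count. The OVTOKO median is -1.58 (-0.76 with such genes at their bound), and the others lie between -0.10 and 0.52.

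By the fitted fold change, the largest falls in OVTOKO were those of ZFP30, ZNF331 and ZNF83, all at 0 there. ZFP30 fell from 21.0 ± 2.3 CPM (SD, n = 2 IGROV-1 libraries), at least 12.1-fold by edgeR (adjusted p = 0.00068, and 3.8e-10 to 0.021 under other settings). ZNF331 fell from 13.5 ± 2.1 CPM, at least 7.78-fold by edgeR (adjusted p = 0.0014, range 1.1e-06 to 0.039). ZNF83 fell from 13.1 ± 3.9 CPM, at least 7.53-fold by edgeR (adjusted p = 0.0022, range 2e-07 to 0.038). These are lower bounds against 3 counts in the OVTOKO library. The 3 calls held under every alternative, DESeq2 included. The 2 rises were those of ZNF114, at least 8.1-fold from 0 (edgeR, adjusted p = 0.016, none given by DESeq2), and of ZNF581, from 28.5 ± 1.0 to 46.25 CPM (log2 fold change 0.78, SE 0.22, edgeR adjusted p = 0.028, up to 0.49 with DESeq2). ZNF581 overlaps ZNF580, which went the other way, from 23.1 and 20.2 CPM to 1.16 CPM, which is 2 counts (log2 fold change -4.09, edgeR adjusted p = 0.00063), and reads could be shared between them.

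In COV504 the largest falls were in the stretch described above. ZNF274 fell from 11.1 ± 0.04 CPM to 0, at least 8.34-fold by edgeR (adjusted p = 0.00049, range 2.3e-07 to 0.016). The ZNF776 gene fell at least 4.97-fold by edgeR (adjusted p = 0.0043) and ZNF586 at least 3.37-fold by edgeR (adjusted p = 0.015), and both calls were lost with DESeq2 (adjusted p 0.083 and 0.16). The largest rises in COV504 were of genes with no count on IGROV-1 PromethION, namely ZNF702P (14.7 CPM, at least 22.9-fold), ZNF667 (9.34 CPM, at least 14.5-fold) and ZNF677 (8.45 CPM, at least 13.2-fold). Their edgeR adjusted p values were 0.0016, 0.0032 and 0.0049. DESeq2 did not call ZNF702P and ZNF667 (adjusted p 0.088 and 0.075) and gave no adjusted p for ZNF677.

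The same 3 genes led the rises in SK-OV-3, with ZNF667 at 11.7 CPM (at least 18.1-fold), ZNF702P at 7.6 CPM (at least 11.8-fold) and ZNF677 at 6.08 CPM (at least 9.46-fold). DESeq2 called none of the 3, with adjusted p values of 0.068 and 0.18 for ZNF667 and ZNF702P and none given for ZNF677 (unadjusted p = 0.12). Because the control libraries are shared, the 2 comparisons are not independent. The falls in SK-OV-3 were small. ZNF180 fell by 1.81, ZNF260 by 1.24 and ZNF146 by 0.67 on the log2 scale, with edgeR adjusted p values of 0.032, 0.045 and 0.028. These calls were lost under 5, 7 and 5 of the alternatives, leaving out MinION replicate 2 among them.

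OVKATE lost ZNF542P (11.8 ± 2.7 CPM to 0, at least 7.94-fold, edgeR adjusted p = 0.00051), the ZNF320 gene (8.78 ± 0.27 CPM to 0, at least 5.92-fold, edgeR adjusted p = 0.00098) and ZNF570 (7.71 ± 0.03 CPM to 0, at least 5.2-fold, edgeR adjusted p = 0.0062). All 3 were also at 0 in OVTOKO. It gained ZNF671 (5.44 CPM), ZNF114 (3.96 CPM) and ZNF667 (3.46 CPM), each from 0 on IGROV-1 PromethION and at least 8.47-, 6.16- and 5.39-fold higher. The call of ZNF667 was lost with DESeq2 and without MinION replicate 1, and DESeq2 gave no adjusted p for ZNF671 and ZNF114.

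COV362 was the line with the highest ZNF135, at 13.7 CPM and at least 21.3-fold above IGROV-1 (edgeR, adjusted p = 0.0018, range 1.1e-07 to 0.024, none given by DESeq2). ZNF135 was silent in 4 lines. ZNF667 (7.84 CPM) and ZNF671 (3.92 CPM) were the next largest rises there. Its largest falls were of ZNF225, ZNF331 and ZNF432, by 3.14, 3.02 and 2.94 on the log2 scale, and rest on 2, 4 and 1 counts. The calls of all 3 and that of ZNF667 were lost with DESeq2 (adjusted p 0.37, 0.18, 0.53 and 0.09), that of ZNF432 under 7 alternatives in all. For ZNF671 DESeq2 gave no adjusted p. In OVMANA, ZNF114 and ZNF415 (both 4.27 CPM) and ZNF382 (3.74 CPM) rose from 0 by edgeR. These calls were lost without MinION replicate 1, that of ZNF382 also with no filter, and DESeq2 gave no adjusted p for the 3 (unadjusted p 0.1, 0.14 and 0.13). ZNF227 and ZNF225 fell by 2.14 and 2.13 and ZNF580 by 1.46, all lost with DESeq2. ZNF497 was the 1 member silent in OVMANA alone, with a median of 2.0 CPM in the other lines.

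By the number of lines in which they were called, ZFP36, ZNF667 and the joined gene of ZNF772 were higher than IGROV-1 in 5 of 6 lines. The exception was OVTOKO in each case. ZFP36, whose product binds AU-rich elements and speeds mRNA decay, had 2.99 and 3.01 CPM on IGROV-1 PromethION, 2.18 and 3.71 on MinION, 1.73 in OVTOKO, and 8.9 to 43.0 in the other 5 lines. ZNF274 was higher in 4 lines and lower in COV504. ZFP30, ZNF146 and ZNF227 were lower than IGROV-1 in 4 lines, and ZFP30 was higher in COV504. ZNF835 was silent in 5 lines, with 3.53 CPM in COV362 and 5.78 CPM in COV504.

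Between instruments in IGROV-1 few members were called. Of 75 tested, edgeR called 1 higher on MinION (1.33%, background 0.11%) and 0 lower (background 0.707%), with 10 at an unadjusted p under 0.05 in either direction. ZNF428 had 58.5 and 53.7 CPM on PromethION and 93.6 and 107.5 CPM on MinION (log2 fold change 0.80, SE 0.14, edgeR adjusted p = 0.042, range 9.9e-11 to 0.51). The groups did not overlap, but the call was lost with DESeq2, with no filter, with all 10 libraries in the fit, and without PromethION replicate 2, MinION replicate 1 or MinION replicate 2. Within an instrument, the median absolute difference of a present member between replicates was 0.30 (PromethION) and 0.26 (MinION) on the log2(CPM + 1) scale.

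A list of 29 genes, drawn up with earlier results known, held co-repressors through which KRAB zinc finger proteins act. It also held other regulators of histone and DNA methylation, KDM4A, TET1, TET2 and TET3 among them, so its counts do not measure co-repression alone. All 29 were detected in OVTOKO and tested. In OVTOKO 7 of the 29 were called lower than in IGROV-1 PromethION, a share above the 15.9% of all genes. Called higher was 1 of the 29, a share below the 18.2% of all genes. The median log2 fold change of the list was -0.34 against 0.0 over all genes. TRIM28, the co-repressor bound by KRAB domains, had 113.3 CPM in OVTOKO and 152.8 to 405.3 CPM elsewhere (log2 fold change -0.88, SE 0.16, edgeR adjusted p = 0.0038). EHMT1, a histone H3 lysine 9 methyltransferase, was lower by a log2 fold change of -2.02 (SE 0.34, edgeR adjusted p = 0.0025), as were HDAC1 (-1.05), CHD4 (-0.66), ATF7IP (-1.16), MPHOSPH8 (-0.76) and KDM4A (-1.28).

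DNMT3B, a de novo DNA methyltransferase, was the 1 gene of the list called higher in OVTOKO. It had 23.1 CPM there, 20.8 in SK-OV-3, 6.44 to 10.8 in the IGROV-1 libraries and 1.78 to 9.89 in the other 4 lines (log2 fold change 1.66, SE 0.37, edgeR adjusted p = 0.0095). SETDB1 had a log2 fold change of -0.38 (edgeR, adjusted p = 0.31) and the maintenance methyltransferase DNMT1 of -0.15 (edgeR, adjusted p = 0.61). The other lines had 3 higher and 8 lower (OVMANA), 1 and 10 (OVKATE), 2 and 13 (SK-OV-3), 1 and 5 (COV362), and 3 and 5 (COV504) of the 29 genes, where all genes were called lower at 16.5%, 22.4%, 19.8%, 18.8% and 19.6%. Some changes named for OVTOKO also occurred in other lines. EHMT1 and KDM4A had fitted levels below IGROV-1 PromethION in every other line, with log2 fold changes of -0.66 to -1.96 and -0.44 to -1.6. The IGROV-1 libraries themselves differed. KDM4A had 33.32 and 58.85 CPM on PromethION and 26.73 and 33.37 on MinION, against 30.99 to 32.91 CPM in OVMANA, OVKATE and COV362. EHMT1 had 37.59 and 51.54 CPM on PromethION and 25.91 and 29.04 on MinION, against 26.34 in SK-OV-3 and 27.42 in COV362. For genes of this list only the main fit is given. TRIM28 had -0.83 in OVKATE, -0.6 in SK-OV-3 and 0.23 to 0.8 in OVMANA, COV362 and COV504. DNMT3B had 1.2 in SK-OV-3 and -2.16 to 0.06 in OVMANA, OVKATE, COV362 and COV504. Whether genes of this list bear on the silent members was not tested.

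Promoter windows of 250 bases before to 50 after the start were found in RefSeq for 114 of the 140 members that are not joined. Their median number of CpG pairs was 23, close to the 22 of 15842 protein-coding genes. Members silent in OVTOKO (35 with a window) had a median of 25 (range 11 to 42), and present members not silent there (48) had 23.5 (6 to 37). The median GC content was 63.7% and 62.0%. Both ranges overlap widely, so silent and detected members did not separate by these features.

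**Figure D5:**
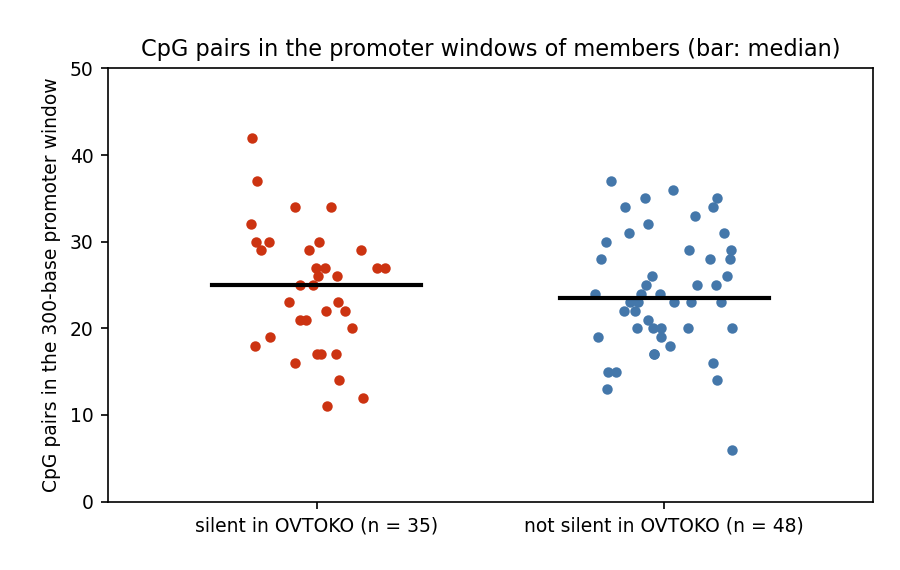
CpG pairs in the promoter window of 300 bases (y axis) of present members silent (35) or not silent (48) in OVTOKO. Each point is a member, bars are medians (25 and 23.5), and the ranges overlap.

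Short motifs were searched on both strands of these windows. The letters CCGGAAG, a core of ETS factor sites, were found in 45.6% of the members, 14.2% of protein-coding genes and 10.7% of all promoters. They were found in 42.9% of members silent in OVTOKO and in 47.9% of those not silent, so the motif is common to both. TATAAA was found in none of the 114 members and in 9.63% of protein-coding genes (11.95% of all promoters). CCAAT was found in 7 of 35 silent and 19 of 48 not silent members (39.6%), against 36.4% of protein-coding genes and 35.7% of all promoters. GGGCGG, an Sp1 site that can overlap CpG pairs, was found in 21 of 35 and 30 of 48, and in 44.6% of all promoters. TGACGTCA and CACGTG were found in 1 and 6 of the 114 members (0.88% and 5.26%). They were found in 2.59% and 8.88% of protein-coding genes, and in 1.98% and 7.43% of all promoters. A match is a description of letters, and none of these shares was tested.

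Long reads also assign counts to transcripts. Of 81 members with at least 20 counts in some line, 58 had this depth in 2 or more lines, and 52 of these have 2 or more annotated transcripts. The transcript with the most counts was the same in all such lines for 44 of the 52 and differed in 8, of which 4 are joined genes. ZNF444, a SCAN domain gene with 2 listed transcripts, had ENST00000592949 on top in 5 lines with 63.3% to 80.5% of the counts, and ENST00000337080 in OVTOKO (59.6%) and SK-OV-3 (62.7%). ZNF473, which encodes a protein of histone pre-mRNA processing, had ENST00000595661 on top in OVKATE (51.5%) and ENST00000391821 in IGROV-1 (53.1%). ZNF226 and ZNF446 were the other 2 single genes. These shares rest on few counts and were not tested.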

How the data were processed

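Transcripts were measured in 10 nanopore libraries of 7 ovarian cancer cell lines. As deposited by the authors, the files hold 1 estimated count for each transcript in each library, with decimals allowed. They also deposited a TPM value, which in every library equalled the transcript's CPM and so is not corrected for length. Per the submitters' processing notes, minimap2 2.24-r1122 and the build GRCh38 were used. Not given in the sources used here were the role of minimap2, the annotation release, the quantification settings and the use of strand. Reads of close copies, pseudogenes and overlapping genes could be split by the counting.

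Estimates were summed per gene. The sums were rounded to whole numbers for edgeR 4.0.16 (R 4.3.3), with TMM scaling, filterByExpr by group, a quasi-likelihood test, two-sided, and Benjamini-Hochberg adjustment over all genes tested. The line comparisons used all 10 libraries in 8 groups (2 residual degrees of freedom), and the instrument comparison used the 4 IGROV-1 libraries. Each SE was derived from the F statistic of the gene. On simulated data for OVTOKO against IGROV-1, 21.5% of genes changed by a log2 of 1 were recovered (11765 genes), and 77% at 2 (11768 genes). For the instruments, 66.5% were recovered at 1 (9853 genes) and 95% at 2 (9889 genes). Gene types came from GENCODE, and promoter windows from RefSeq on GRCh38.p14. Protein features were not analysed here.

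Levels, runs and shares of silent members were described without a test. The members and lists were chosen with earlier results of these data known. Members named with values were those in runs, the 3 largest called rises and falls per line, those called between instruments, the 10 most abundant, those silent in 1 line alone or in the most lines, and members with no C2H2 finger. ZNF766, ZNF256, ZNF606, ZNF580 and the genes of the transcript paragraph were chosen after their values were seen. Alternatives were RLE factors, DESeq2 1.42.0, no filter, joined genes left out, other sets of libraries, each IGROV-1 library left out, other limits for silent, present and run, and thinned libraries. A further limit, a median of at least 5 CPM in the other lines, was added after the data were seen.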

Additional observations from a re-analysis of the deposited data

How the results depend on the processing

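Each of the 6 lines rests on 1 library, and a count of 0 is compatible with up to 3 counts. That is 1.18 to 1.73 CPM in these lines. A member needs 5 CPM in only 1 line to be present, so a 0 in another line does not tell a level under this bound from none. The tests borrow their spread from 4 IGROV-1 libraries. No named result changed its sign under any setting.

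DESeq2 called 0 members in OVMANA, 5 in OVKATE, 7 in OVTOKO, 0 in SK-OV-3, 1 in COV362, 4 in COV504 and 0 between instruments (6 at an unadjusted p under 0.05), and the cause was not tested. It gave no adjusted p for 21 to 44 of the 120 members by line, among them 10 named rises, which count as neither kept nor lost. With PromethION libraries alone OVTOKO had 24. Leaving out 1 library gave 13 to 26 members called in OVMANA, 21 to 40 in OVTOKO and 0 to 2 between instruments. The instrument comparison had 0 with no filter, 0 with all 10 libraries in the fit, and 8 with the replicate number as a block, where calls over all genes rose from 82 to 1979. The labels do not say what a number shares. The deviations of same-numbered libraries had a correlation of 0.37, a hint of pairing that 2 numbers per instrument cannot settle, and the fit without the block was kept as planned.

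At 3 CPM as present, silent members numbered 7 in OVMANA, 2 in COV362 and 14 in IGROV-1. At 10 CPM they numbered 1 in OVMANA, 7 in OVKATE, 26 in OVTOKO, 0 in SK-OV-3, 0 in COV362, 2 in COV504 and 3 in IGROV-1. With under 1 CPM as silent COV362 had 7, and after thinning it had 2. With a median of 5 CPM in the other lines (added after the data were seen) the numbers were 0 in OVMANA, 5 in OVKATE, 22 in OVTOKO, 0 in SK-OV-3, 0 in COV362, 3 in COV504 and 1 in IGROV-1. Fewer members are counted at the higher limits.

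OVKATE had 2 runs with under 1 CPM as silent, 0 at 10 CPM as present, 3 with runs of 2 or more and 0 with runs of 4 or more. OVTOKO had 3 at 10 CPM. COV504 had 0 at 10 CPM and 1 with runs of 4 or more.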
